A study of Homo sapiens with 6 samples.

Results

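The genes described here encode the part of the extracellular matrix that is not collagen: matrix glycoproteins, proteoglycans, genes of the hyaluronan network with the receptor CD44, and the lysyl oxidase-like (LOX-like) enzymes. They are 50 genes chosen by name for these known roles, with earlier results of these data known, out of 58870 genes in the count table. Their transcripts were measured by RNA sequencing in WM164, an established human melanoma cell line grown in RPMI with serum. The 3 GFP libraries came from cells given green fluorescent protein, and the 3 T-MGM libraries from cells given a tethered dimer, in which MITF is joined to MAFG by a flexible linker. The comparison addresses what forcing MAFG and MITF into 1 molecule does to transcript levels. Per the study's methods, the dimer holds the melanoma isoform of MITF, and both vectors are lentiviral, with the EF1α promoter and blasticidin selection. The design has no arm with MITF or MAFG alone, so the dimer and its parts cannot be told apart here. The libraries are named 1 to 3 in each group; no label says that they came from separate cultures, so p-values measure the spread between these libraries, which may be technical.

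Total counts were 35057239 to 38738065 in the GFP and 44577774 to 59250663 in the T-MGM libraries, so each T-MGM library was deeper than each GFP library. The genes of the construct differed little (log2 0.08 for MITF and -0.06 for MAFG). They therefore neither checked the labels nor clearly showed the transcript of the construct. The paper reports that WM164 cells expressed the dimer, and why these counts did not clearly show it was not tested. MITF had 19161 ± 46.9 normalized counts in the GFP and 20269.5 ± 165 in the T-MGM libraries (SD, n = 3 each). MAFG had 2458 ± 70.3 and 2358 ± 34.9. A normalized count is a read count divided by the size factor of its library, which removes differences in depth. Of 8 melanocytic markers, 7 were expressed well above the floor of 3 counts, and their summed level was 1144 to 1168 TPM in the GFP and 972 to 1009 TPM in the T-MGM libraries. TYRP1, a pigment enzyme, had at most 6 counts. TPM, the deposited abundance unit, is scaled for transcript length as well as depth. These libraries come from whole cultures, so fewer cells of a kind and less RNA per cell cannot be told apart.

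The extracellular matrix surrounds cells with fibres and hydrated gels. Adhesive glycoproteins such as fibronectin and tenascin link fibres to integrins on the cell. Proteoglycans carry long sulfated sugar chains that hold water and bind growth factors, and some of them, the syndecans and glypicans, sit in the cell membrane. Hyaluronan is a long sugar chain without sulfate, made at the membrane and held to proteoglycans by link proteins. Enzymes of the LOX family cross-link collagen and elastin. Melanoma cells make many of these molecules themselves, and they bind and remodel those of the surrounding tissue.

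Of the 50 genes, 23 rose and 6 fell in T-MGM cells, 13 did not pass the test, and 8 had counts too low to be tested. A gene passed at an adjusted p at or under 0.05 and was called where it also changed over 2-fold, the threshold of the study. The 6 called genes were HAPLN1, which fell, and LOXL2, SDC2, GPC4, CRIM1 and MATN2, which rose. They are 14.3% of the 42 tested, where 4.63% of all 19135 genes tested were called, 3.26% higher and 1.36% lower. The 29 that passed are 69.0% of those tested, beside 38.4% of all genes, with 19.2% of all genes higher and 19.2% lower. These genes were more highly expressed than most, and high counts pass more easily. Of the members averaging at least 50 normalized counts, 28 of 31 (90.3%) passed, beside 54.0% of such genes overall. At a mean of at least 1000 it was 21 of 22 (95.5%), beside 68.0% overall. In 30 of the 42 (71.4%) every T-MGM library lay on 1 side of every GFP library, beside 46.8% of all genes. The median log2 fold change of the 42 was 0.31, and that of all genes tested was -0.00. In limma on log2 of the TPM plus 1, 32 members were tested, and 11 were higher and 6 lower past the threshold. Of all 13674 genes in that fit, 8.44% were higher and 31.9% lower. There LOXL2 and HAPLN1 were called, beside 0.973% of all genes. On that scale 11 that passed in the counts did not: FN1, THBS3, LUM, VCAN, MGP, SPP1, MFGE8, SDC4, HAS2, HSPG2 and ECM1. MATN2 was under the minimum level of that fit. In the TPM fit the median of all genes with at least 50 normalized counts moved from -0.01 to -0.13.

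**Figure D1:**
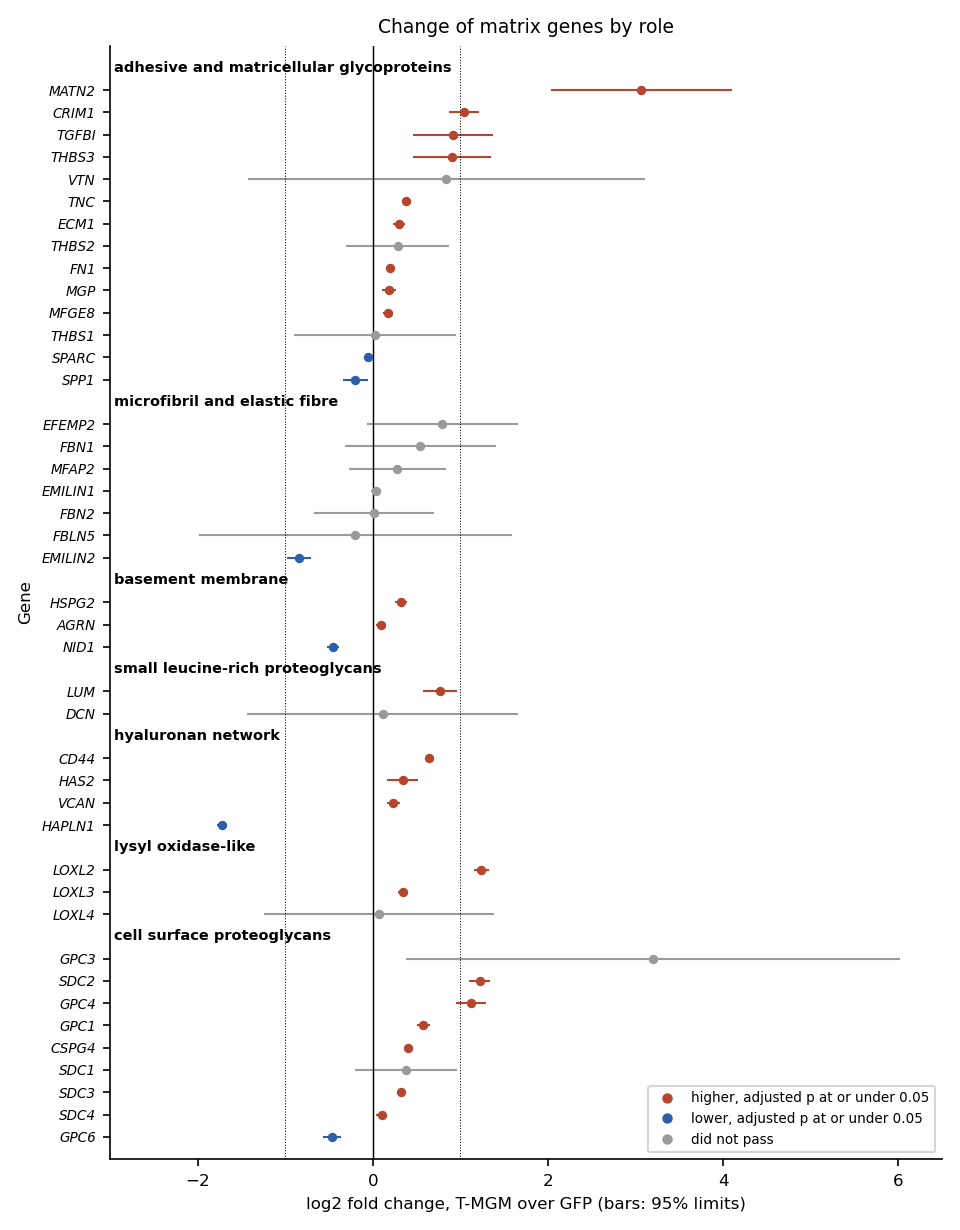
Log2 fold change (T-MGM over GFP, x axis) of the 42 tested genes, grouped by role, with 95% limits as bars, colour marking genes that passed the test and dotted lines marking 2-fold. Most coloured points lie just right of 0, with HAPLN1 at -1.72 as the lowest and MATN2 at 3.06 as the highest among those that passed.

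WM164 cells made several of these transcripts in large amounts. SPARC, a collagen-binding matricellular protein, had 1089 ± 19.5 TPM in the GFP and 925 ± 37.2 TPM in the T-MGM libraries (SD, n = 3 each). FN1, which encodes fibronectin, had 963 ± 19.4 TPM in the GFP and 1003 ± 24.9 TPM in the T-MGM libraries. The hyaluronan receptor CD44 had 267 ± 7.08 TPM in the GFP and 401 ± 11.9 TPM in the T-MGM libraries. These were the 3 highest of the members in both groups. TNC (tenascin-C), SDC3 (syndecan-3) and MGP (matrix Gla protein) followed at 117, 91.7 and 69.7 TPM in the GFP libraries. By mean normalized count, FN1 was the 14th most abundant gene of the whole table and SPARC the 37th. FN1 alone took 0.616% to 0.621% of all counts in the GFP and 0.677% to 0.695% in the T-MGM libraries. All 50 members together took 1.20% to 1.21% and 1.31% to 1.34%. Among members averaging at least 50 normalized counts, MFAP2, TGFBI, THBS3 and SDC1 were the lowest, near or under 1 TPM in the GFP libraries, and members with fewer counts lay lower still or at 0.

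**Figure D2:**
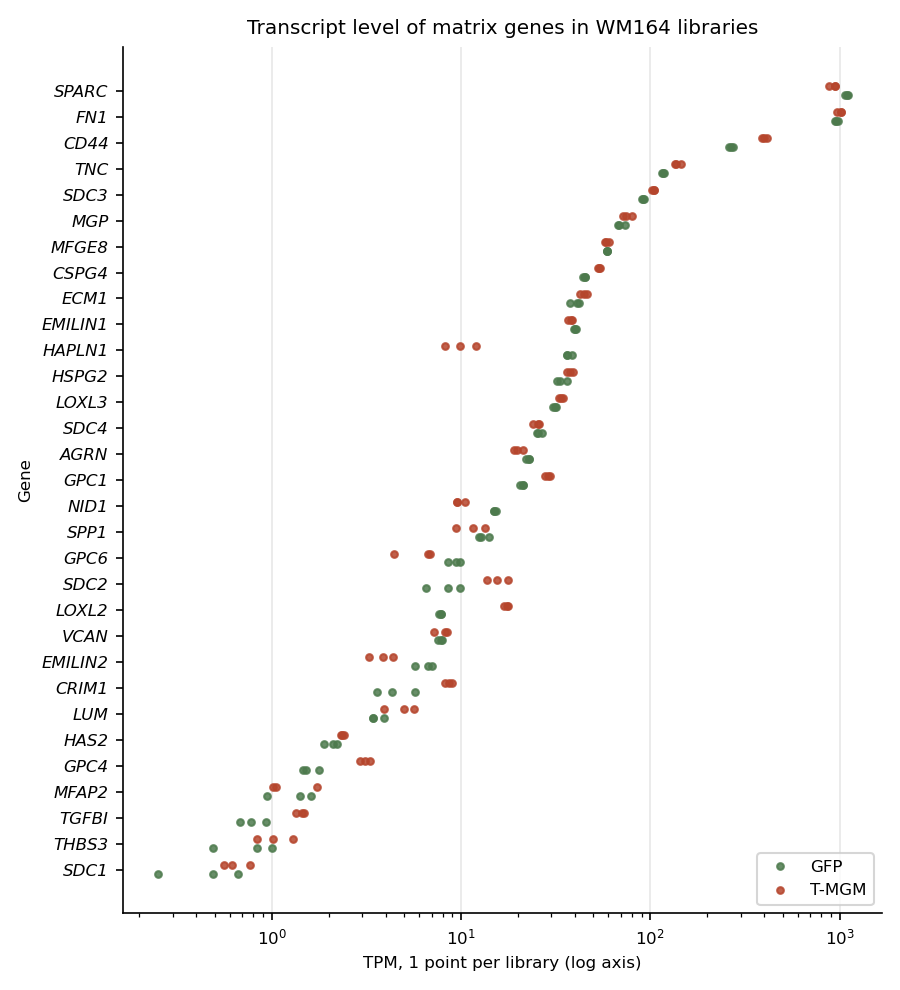
Transcript level in TPM (log axis, 1 point per library) of the 31 members averaging at least 50 normalized counts, ordered by their mean in the GFP libraries (green, T-MGM in red). SPARC and FN1 lie near 1000 TPM, and the red points of HAPLN1 lie far left of its green points at 37.1 TPM on average.

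The hyaluronan network held the only called gene that fell. All 4 of its members passed, 3 higher and 1 lower. All 4 averaged at least 50 normalized counts, where 54.0% of all genes passed. The fall was in HAPLN1, the link protein that locks hyaluronan to proteoglycans such as versican. The receptor CD44, versican itself (VCAN) and the hyaluronan synthase HAS2 rose, each under 2-fold. HAPLN1 (ENSG00000145681.10; chr5:83637805-83720855, minus strand) had 8220.2, 8125 and 8101 normalized counts in the GFP and 2564, 2486 and 2377 in the T-MGM libraries. Every T-MGM library lay far below every GFP library. The log2 fold change was -1.72 (SE 0.03), a level 3.30-fold lower, with an adjusted p too small to store, written as 0. It lay between -1.89 and -1.55 in 16 alternative analyses. CD44 had 14732, 14686 and 14756 normalized counts in the GFP and 22649.5, 23073 and 22926 in the T-MGM libraries. Its libraries were tight within groups and the groups lay well apart, at 1.55-fold (95% limits 1.52 to 1.59, adjusted p written as 0). VCAN had 2945, 2759.9 and 2999 with GFP and 3489.5, 3329.9 and 3407 with T-MGM, without overlap, at a log2 fold change of 0.23 (adjusted p = 1.19e-09). On the TPM scale VCAN differed by 0.03 (adjusted p = 0.75), or 0.16 relative to the median gene. HAS2, which makes hyaluronan at the membrane, rose from 434 to 549 normalized counts on average (log2 0.34, adjusted p = 0.000661).

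**Figure D3:**
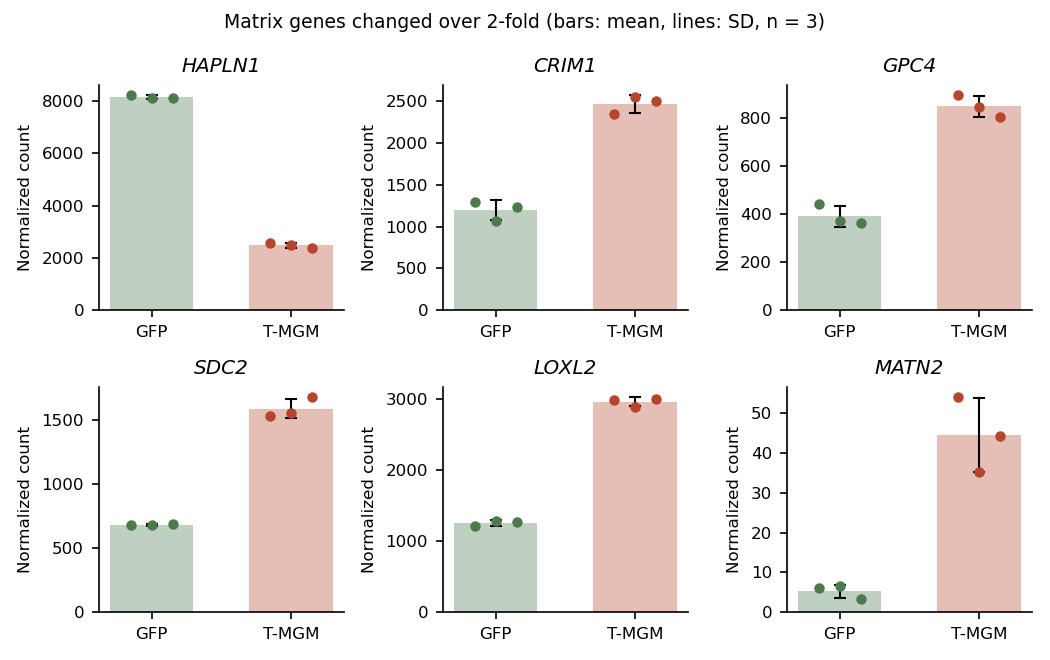
Normalized counts (y axis, from 0) of the 6 called genes in the 3 GFP and 3 T-MGM libraries, with bars for the mean, lines for the SD and 1 point per library. The groups are separate in every panel, from a mean of 8149 against 2476 for HAPLN1 to 5.31 against 44.4 for MATN2.

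The stretches of 250 bases before the start of transcription were read for motifs of the factors in the dimer. RefSeq promoters on GRCh38.p14 matched 37 of the 50 genes, in a table of 27305 promoters. Both strands were searched for CACGTG and CATGTG, the cores bound by MITF, for TGCTGA, a core bound by MAF proteins, and for TGACNNNGC, the core shared by antioxidant-response elements. CACGTG lay in 1 of the 37 (FBN2), 2.703%, beside 6.49% of all promoters, and CATGTG in 0 of 37, beside 9.54%. TGCTGA lay in 5 of the 37, 13.5%, beside 14.1% of all. The 5 were CD44, FBN1, FN1, MFGE8 and SPP1. TGACNNNGC also lay in 5, beside 11.03% of all, namely CD44, FBLN2, GPC6, MFAP2 and MFGE8. CD44 and MFGE8 held both of the latter motifs. A match is only a match of letters, and none says that a factor binds there. Shown are HAPLN1, the called gene that fell (chr5:83720856-83721105, minus strand, 50.8% G and C), and GPC4, a called glypican (chrX:133415490-133415739, minus strand, 76% G and C), neither with a match. FN1 (chr2:215436069-215436318, minus strand, 76.4% G and C) was added after its match was seen. Each reads 5′ to 3′ toward the start, and the capitals mark the TGCTGA match, which reads on the opposite strand and lies 223 to 218 bases before the start. The median promoter of the members held 68% G and C, and that of all genes 58%.
HAPLN1: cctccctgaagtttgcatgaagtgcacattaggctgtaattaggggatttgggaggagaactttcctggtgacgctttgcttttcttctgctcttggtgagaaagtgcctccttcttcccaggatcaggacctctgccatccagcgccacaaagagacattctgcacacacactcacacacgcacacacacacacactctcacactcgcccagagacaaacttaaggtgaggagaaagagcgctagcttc
GPC4: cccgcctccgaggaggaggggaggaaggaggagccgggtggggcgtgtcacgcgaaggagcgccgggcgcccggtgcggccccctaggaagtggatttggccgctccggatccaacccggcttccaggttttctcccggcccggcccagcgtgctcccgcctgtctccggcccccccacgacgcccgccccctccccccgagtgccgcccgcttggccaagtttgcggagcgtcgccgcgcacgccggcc
FN1: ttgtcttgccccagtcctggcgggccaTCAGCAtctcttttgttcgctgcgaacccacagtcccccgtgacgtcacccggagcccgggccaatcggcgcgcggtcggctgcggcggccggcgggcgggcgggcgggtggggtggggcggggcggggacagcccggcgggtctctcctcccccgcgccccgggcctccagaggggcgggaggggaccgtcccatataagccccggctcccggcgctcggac

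VCAN, HAPLN1 and a further matrix gene, EDIL3, lie next to each other in the genome and moved differently. The starts of VCAN and HAPLN1 are 0.249 Mb apart, yet VCAN rose slightly where HAPLN1 fell. EDIL3, an integrin-binding glycoprotein, starts 0.664 Mb on the other side. It had 19.2, 10.8 and 13.7 normalized counts in the GFP and 48.4, 71.2 and 41.3 in the T-MGM libraries, low in both but without overlap (log2 1.88, adjusted p = 1.21e-05). Other genes within 5 Mb, among those with at least 50 normalized counts, had a median log2 fold change of -0.06 over 25 genes. Neighbourhoods were examined after the values had been seen. The same window gave -0.38 over 35 genes around NID1 and -0.40 over 17 genes around GPC6, close to the change of each gene itself (-0.45 and -0.47). Around LOXL2 it was 0.19 over 47 genes. Other neighbourhoods went against their gene. Around ECM1 and AGRN, which rose (0.29 and 0.09), it was -0.24 over 142 genes and -0.20 over 69. What moved these neighbourhoods was not tested.

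**Figure D4:**
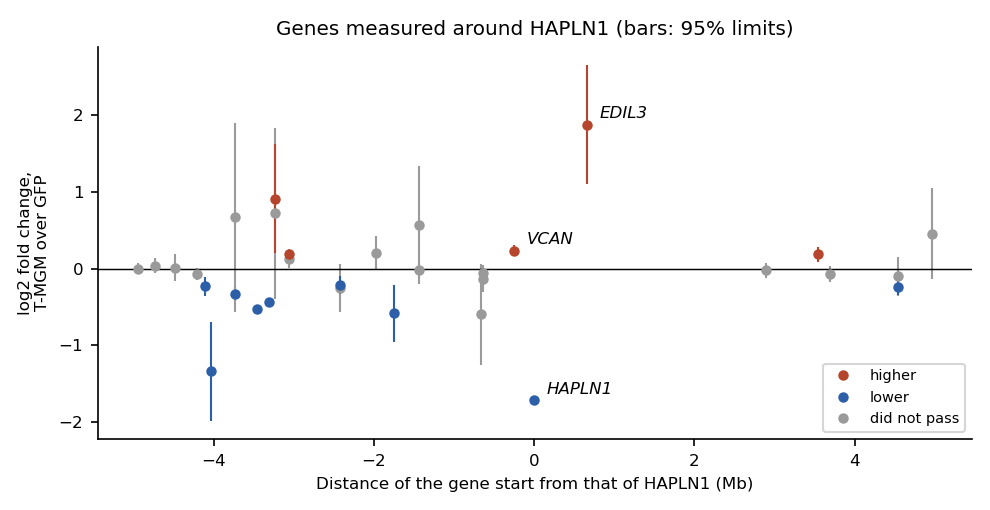
Log2 fold change (T-MGM over GFP, y axis) of genes by the distance of their start from that of HAPLN1 (x axis, Mb), with 95% limits as bars and colour marking genes that passed. HAPLN1 lies at -1.72 between VCAN at 0.23 and EDIL3 at 1.88.

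Among the LOX-like enzymes, LOXL2 more than doubled in counts, LOXL3 rose slightly, and LOXL4 and LOXL1 were barely detected. LOXL2 cross-links collagen by oxidizing lysines. LOXL2 (ENSG00000134013.15; chr8:23296897-23425328, minus strand) had 1218, 1288 and 1266 normalized counts in the GFP and 2987, 2894 and 3008 in the T-MGM libraries. The groups lay far apart, with little spread within either. The change was 2.36-fold (95% limits 2.22 to 2.499, adjusted p = 6.37e-177), and it was called in all 16 alternatives. LOXL2 overlaps ENTPD4 on the same strand. ENTPD4 had a log2 fold change of 0.19 (adjusted p = 1.2e-05). LOXL3, a related oxidase, was the more abundant of the pair per length, with 31.2 ± 0.405 TPM in the GFP and 33.8 ± 0.711 TPM in the T-MGM libraries. It had 4589, 4547 and 4584 normalized counts in the GFP and 5584, 5768 and 5978 in the T-MGM libraries. The groups did not overlap (log2 0.34, adjusted p = 3.08e-30). LOXL4 had a mean of 9.44 normalized counts and did not pass (adjusted p = 0.956), and LOXL1 had at most 2 counts in any library.

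Cell-surface proteoglycans moved mostly upward in the counts. Of 9 genes, 6 rose, 1 fell and 2 did not pass. Of the 8 averaging at least 50 normalized counts, 7 (87.5%) passed, beside 54.0% of such genes overall. Among all genes tested, 19.2% were higher and 19.2% lower. SDC2 (syndecan-2) and GPC4 (glypican-4), which carry heparan sulfate and bind growth factors at the membrane, were called. SDC2 (ENSG00000169439.12; chr8:96493813-96611790, plus strand) had 679.9, 679 and 689.9 normalized counts in the GFP and 1535, 1560.1 and 1678 in the T-MGM libraries. All T-MGM libraries were over 2-fold above the GFP ones, at 2.33-fold (95% limits 2.15 to 2.53, adjusted p = 7.01e-88). GPC4 (ENSG00000076716.9; chrX:133300103-133415489, minus strand) had 441, 372 and 362 with GFP and 897, 848 and 807 with T-MGM. The lowest T-MGM library lay above the highest GFP library, at 2.17-fold (95% limits 1.93 to 2.44, adjusted p = 1.59e-36). On the TPM scale, both fell short of 2-fold, with a log2 difference of 0.84 for SDC2 (15.6 against 8.32 TPM) and 0.67 for GPC4 (3.11 against 1.59 TPM). Relative to the median gene these were 0.97 and 0.80, and 1.06 and 1.08 with 0.1 added to the TPM in place of 1.

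The other syndecans and glypicans changed less. GPC1 (glypican-1) had 2519, 2374 and 2382 normalized counts in the GFP and 3558, 3739 and 3545 in the T-MGM libraries (log2 0.58, adjusted p = 2.58e-53). CSPG4, the chondroitin sulfate proteoglycan known as a melanoma antigen, had 19164, 18851 and 18521 with GFP and 25147, 24579.6 and 25009.6 with T-MGM (log2 0.40, adjusted p = 3.44e-132). In both, the T-MGM libraries lay above all GFP libraries. SDC3, the most abundant syndecan here, had 24176, 24469.5 and 24183 in the GFP and 30620.2, 30215 and 30332 in the T-MGM libraries (log2 0.32, adjusted p = 2.52e-118). SDC4 (syndecan-4) had 3211, 3333 and 3143 with GFP and 3539.7, 3480.2 and 3359 with T-MGM, so that the groups barely separated (log2 0.10, adjusted p = 0.0134). It lost the threshold with total-count scaling (adjusted p = 0.352) and without GFP replicate 1, GFP replicate 3 or T-MGM replicate 1 (adjusted p = 0.0582, 0.106 and 0.102). On the TPM scale its difference was -0.05, or 0.08 above the median gene. GPC6 (glypican-6) was the one that fell. It had 1997, 1899 and 1983 in the GFP and 1436, 1525 and 1297 in the T-MGM libraries, all lower (log2 -0.47, adjusted p = 4.13e-17). GPC3 (glypican-3), which starts 0.572 Mb from GPC4, had 2, 0 and 0 counts in the GFP and 4, 9 and 12 in the T-MGM libraries and did not pass (adjusted p = 0.0652). SDC1 (syndecan-1) averaged 43.96 and 57.1 normalized counts (adjusted p = 0.354).

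Of 15 adhesive and matricellular glycoproteins, 9 rose, 2 fell, 3 did not pass and 1 was not tested. Those that passed are 78.6% of the 14 tested, beside 38.4% of all genes. All 10 that averaged at least 50 normalized counts passed, beside 54.0% of such genes overall. MATN2 and CRIM1 were called. MATN2 (matrilin-2) is a filament-forming adaptor of the matrix. MATN2 (ENSG00000132561.14; chr8:97868840-98036724, plus strand) had 5.996, 6.496 and 3.43 normalized counts in the GFP and 53.8, 35.1 and 44.3 in the T-MGM libraries. It was close to the floor in the GFP libraries, with raw counts of 5, 6 and 3, and clearly present in all T-MGM libraries. The change was 8.36-fold (95% limits 4.08 to 17.1, adjusted p = 4.27e-08), with wide limits at these few counts. MATN2 averaged 0.08 TPM in the GFP and 0.58 TPM in the T-MGM libraries. With 1 added to these low values, and without a minimum level, its log2 difference was 0.54. MATN2 overlaps the ribosomal gene RPL30 on the opposite strand, and RPL30, with a mean of 20917 normalized counts, had a log2 fold change of 0.03 (adjusted p = 0.24). Whether reads were counted by strand is not settled by the sources, so this overlap leaves MATN2 uncertain.

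CRIM1 is a membrane protein that binds growth factors of the BMP family. CRIM1 (ENSG00000150938.10; chr2:36355778-36551135, plus strand) had 1293, 1063 and 1229 normalized counts in the GFP and 2346, 2545 and 2501 in the T-MGM libraries. The groups lay well apart, but the change sat on the threshold at 2.06-fold (95% limits 1.83 to 2.32, adjusted p = 2.57e-31). It was under 2-fold with total-count scaling (log2 0.99), without GFP replicate 2 (0.97), and on the TPM scale (0.81). CRIM1 overlaps FEZ2 on the opposite strand, which had a log2 fold change of 0.04 (adjusted p = 0.554).

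The most abundant matrix glycoproteins changed by small amounts. FN1 had 260442, 260273 and 258959 normalized counts in the GFP and 296864, 302403 and 295865 in the T-MGM libraries. The difference was small next to its level but larger than the spread of either group, at 1.15-fold (95% limits 1.13 to 1.17, adjusted p = 9.88e-60). On the TPM scale FN1 differed by 0.06 (adjusted p = 0.121), or 0.19 above the median gene. TNC, which encodes tenascin-C, had 35589, 35515 and 35878 with GFP and 46101, 46803 and 46614 with T-MGM (log2 0.38, adjusted p = 1.9e-199), and all T-MGM libraries were higher. SPARC had 82928, 82359 and 82758 in the GFP and 79969, 80077 and 78882 in the T-MGM libraries. It fell by a small margin, log2 -0.05 (adjusted p = 9.21e-06), and did not pass with a correction for GC content and length (-0.02, adjusted p = 0.237). The fall was larger with total-count scaling (-0.11) and on the TPM scale (-0.24, adjusted p = 0.00151, or -0.11 relative to the median gene).

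THBS3 (thrombospondin-3) had 77.9, 43.3 and 76.5 normalized counts in the GFP and 119.5, 123 and 126 in the T-MGM libraries (log2 0.90, adjusted p = 0.000262). TGFBI, an adhesive protein induced by TGF-beta, had 44.4, 60.6 and 75.4 with GFP and 108, 133 and 102 with T-MGM (log2 0.92, adjusted p = 0.000362). Both were low, and in both every T-MGM library was above every GFP library. ECM1 (extracellular matrix protein 1) had 3624, 3886 and 4005 in the GFP and 4692, 4843 and 4597 in the T-MGM libraries (log2 0.29, adjusted p = 7.36e-17). MGP, an inhibitor of calcification, had 1987, 1932 and 1965 with GFP and 2210.5, 2194 and 2282 with T-MGM (log2 0.19, adjusted p = 2.71e-05). MFGE8, a bridging protein in the uptake of dying cells, had 4542, 4598 and 4625 with GFP and 5074, 5321 and 5147 with T-MGM (log2 0.17, adjusted p = 3.08e-09). In these 3 the groups did not overlap either, although MFGE8 was level on the TPM scale, at -0.00, or 0.13 above the median gene. SPP1 (osteopontin, a secreted integrin ligand) averaged 735 normalized counts in the GFP and 639 in the T-MGM libraries. It fell by 0.20 on the log2 scale (adjusted p = 0.017), and lost the threshold in 9 of 16 alternatives. THBS1 and THBS2 (thrombospondins) and VTN (vitronectin) averaged 22.4, 45.6 and 4.35 normalized counts and did not pass, with adjusted p from 0.522 to 0.979. POSTN (periostin) had at most 2 counts.

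Of the basement membrane genes, HSPG2 (perlecan) and AGRN (agrin), both heparan sulfate proteoglycans, rose, and NID1 (nidogen-1), a linker between laminin and collagen networks, fell. NID1 had 4244, 4193 and 4288 normalized counts in the GFP and 2966, 3280.1 and 3049.9 in the T-MGM libraries. All T-MGM libraries were lower (log2 -0.45, adjusted p = 9.69e-37). HSPG2 had 14146, 14476 and 13882 with GFP and 17212, 18439.8 and 17407 with T-MGM (log2 0.32, adjusted p = 1.1e-18), without overlap. AGRN had 5176, 5206 and 5331 in the GFP and 5505, 5707 and 5545 in the T-MGM libraries. Its rise was small (log2 0.09, adjusted p = 0.00181) and its direction turned with GC and length correction (-0.08, adjusted p = 0.0126) and on the TPM scale (-0.16, or -0.03 relative to the median gene). NID2 (nidogen-2) had at most 3 counts.

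Genes of microfibrils and elastic fibres were mostly scarce, and 1 of the 7 tested (14.3%) passed, beside 38.4% of all genes. EMILIN2, an elastic-fibre glycoprotein, had 945, 934 and 982 normalized counts in the GFP and 556, 532 and 505 in the T-MGM libraries. Every T-MGM library was lower (log2 -0.85, adjusted p = 6.34e-31). Its abundant relative EMILIN1 had 6558, 6435 and 6495 with GFP and 6792, 6767 and 6415 with T-MGM, with overlapping groups, a log2 fold change of 0.03 and adjusted p = 0.328. With GC and length correction it was -0.13 (adjusted p = 7.36e-06). The fibrillins FBN1 and FBN2, the fibulins FBLN5 and EFEMP2, and MFAP2, a microfibril component, averaged 7.204 to 61.3 normalized counts and did not pass, with adjusted p from 0.153 to 0.989. FBLN1 had at most 5 counts, and EFEMP1 and MFAP4 at most 1 and 2. FBLN2 had 0 counts in every library, which allows up to 3 counts, or 0.0506 to 0.0856 CPM (counts scaled to library size).

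Among the small leucine-rich proteoglycans, which coat collagen fibrils, LUM (lumican) rose. It had 311, 285 and 316 normalized counts in the GFP and 497, 501 and 549.8 in the T-MGM libraries. The groups were well separated (log2 0.77, adjusted p = 1.47e-13). Its neighbour DCN (decorin), 0.0717 Mb away, averaged 7.14 normalized counts and did not pass (adjusted p = 0.939). BGN (biglycan) had at most 4 counts and was not tested. The LUM rise was not past the threshold on the TPM scale, at 4.85 ± 0.885 against 3.59 ± 0.283 TPM.

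A further list of 97 matrix genes outside the 50, also chosen with earlier results of these data known, was compared the same way. Of 71 tested, 27 rose and 10 fell (52.1%, beside 38.4% of all genes), and 15 were called, 13 higher and 2 lower, beside the 4.63% called, 3.26% higher and 1.36% lower, of all genes. The median log2 fold change of the 71 was 0.20. Of the further genes averaging at least 50 normalized counts, 33 of 47 (70.2%) passed, beside 54.0% of such genes overall. At a mean of at least 1000 it was 20 of 26 (76.9%), beside 68.0%. On the TPM scale 44 were tested, and 13 passed in each direction, beside 8.44% of all genes higher and 31.9% lower. There 4 were called, beside 0.973% of all genes. Of genes named below, XYLT1 (log2 0.78), HS3ST1 (0.36), CCN3 (0.66) and SPOCK1 (-0.82) were under 2-fold with 1 added to the TPM. With 0.1 added in place of 1 they were 0.96, 0.93, 0.86 and -1.68. Relative to the median gene the latter were 1.11, 1.08, 1.01 and -1.53. LTBP2, PRELP and NRP1 were under the minimum level of the TPM fit. The enzymes that build and trim the sugar chains of proteoglycans gave 13 genes that rose and 4 that fell, of 32 tested. These 17 are 53.1% of the enzymes tested, beside 38.4% of all genes. At a mean of at least 50 normalized counts 55.6% of the enzymes passed, beside 54.0% of all such genes. At a mean of at least 1000 it was 70.6% beside 68.0%, so at matched levels the share was close to that of all genes. PAPSS2 and PAPSS1 make the activated sulfate used by every sulfotransferase. PAPSS2 had 251, 298 and 255 normalized counts in the GFP and 2491, 2499.6 and 2616 in the T-MGM libraries. The log2 fold change was 3.24 (SE 0.07), with an adjusted p written as 0. PAPSS1 rose by 0.19 on the log2 scale (adjusted p = 5.21e-07). It had 24.5 TPM in the GFP and 25.3 TPM in the T-MGM libraries, beside 1.46 and 12.2 TPM for PAPSS2. HS3ST3A1 adds a late sulfate to heparan sulfate, and it went from 16.8, 5.41 and 11.4 to 172, 154 and 156 (log2 3.86, adjusted p = 1.94e-30). Its relative HS3ST1 had 131, 128 and 84.5 with GFP and 244, 309 and 272 with T-MGM (log2 1.27, adjusted p = 2.28e-13). XYLT1, which starts each chain on the core protein, had 1048, 1056 and 1013 in the GFP and 2522, 2614 and 2623 in the T-MGM libraries (log2 1.32, adjusted p = 6.51e-172). In PAPSS2, HS3ST3A1, HS3ST1 and XYLT1 the groups were far apart. The heparan sulfate polymerases EXT1 and EXT2 rose by less, at 0.46 and 0.44 on the log2 scale. The 4 that fell did so slightly. They were CHST11, a sulfotransferase of chondroitin (-0.26), B3GALT6 (-0.20), CHSY1, a chondroitin synthase (-0.18), and HS2ST1, a sulfotransferase of heparan sulfate (-0.17).

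CEMIP, which degrades hyaluronan, fell as HAPLN1 did. It had 755, 755 and 844 normalized counts in the GFP and 221, 195 and 173 in the T-MGM libraries (log2 -2.00, adjusted p = 6.4e-85). HAPLN3, another link protein, rose, from 235, 210.0 and 214 to 392, 357 and 427 (log2 0.84, adjusted p = 1.07e-11). Both sets were without overlap. The hyaluronidases HYAL2 (0.57, adjusted p = 5.51e-18) and HYAL3 (0.52, adjusted p = 0.01) rose, while CEMIP2 (-0.15), a relative of CEMIP, and HMMR (-0.18), a hyaluronan receptor, fell slightly. SPOCK1, a matricellular proteoglycan, had 297, 319 and 315 with GFP and 91.2, 78.1 and 77.5 with T-MGM, the other called fall (log2 -1.92, adjusted p = 2.88e-36). CCN2 and CCN3, matricellular proteins that bind integrins, rose by 1.65 and 1.18, CCN2 from 1249 to 3909 normalized counts on average (adjusted p written as 0) and CCN3 from 220.3 to 499 (adjusted p = 3.85e-27). LTBP2, a microfibril protein, had 26.4, 47.6 and 20.6 in the GFP and 136, 137 and 166 in the T-MGM libraries (log2 2.21, adjusted p = 5.53e-16). Its relatives LTBP1, LTBP3 and LTBP4, which anchor latent TGF-beta, rose by 0.81, 0.61 and 0.53. PRELP, a leucine-rich proteoglycan, had 65.95, 63.9 and 45.7 with GFP and 124, 138 and 112 with T-MGM (log2 1.09, adjusted p = 4.55e-06). NRP1 (neuropilin-1), a membrane receptor that can carry a glycosaminoglycan chain, had 37.2, 29.2 and 33.1 with GFP and 97.6, 80.98 and 112 with T-MGM (log2 1.55, adjusted p = 5.33e-08).

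**Figure D5:**
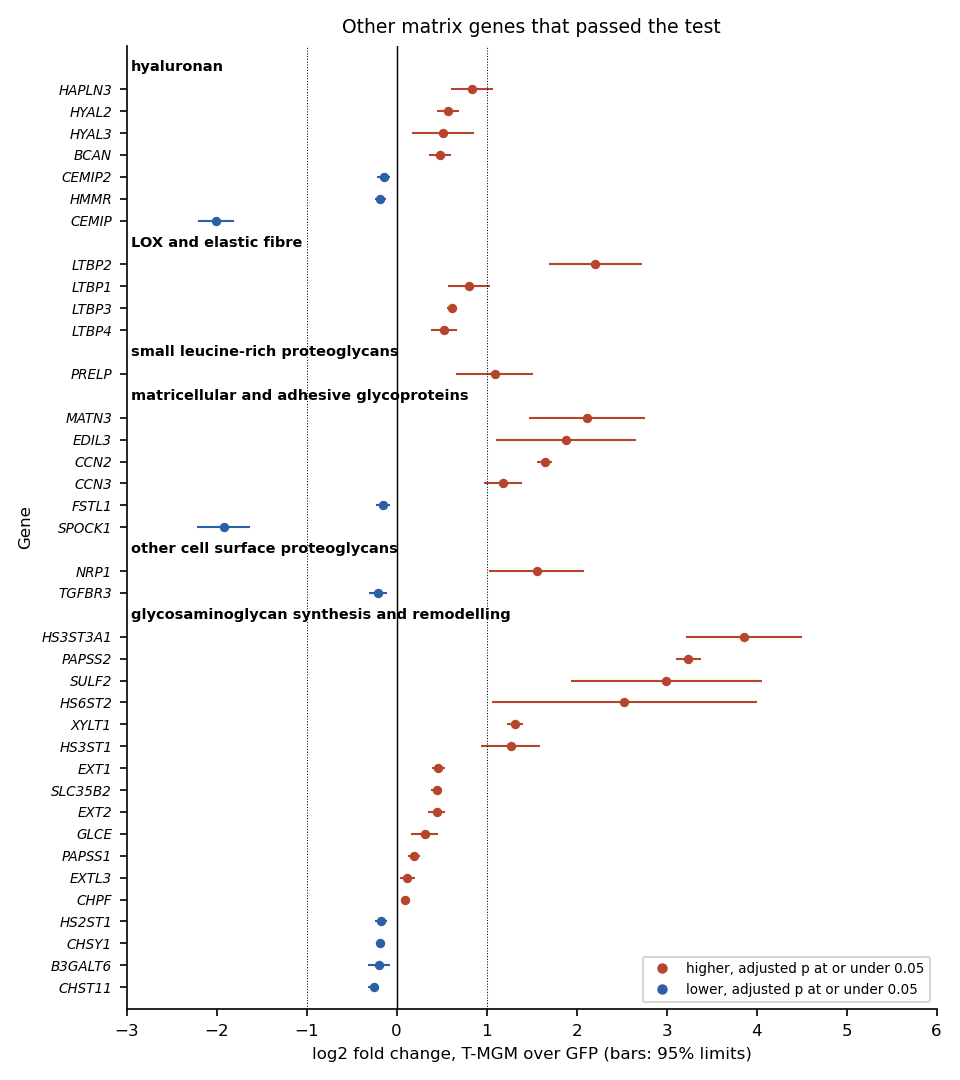
Log2 fold change (T-MGM over GFP, x axis) of the 37 further matrix genes that passed the test, grouped by role, with 95% limits as bars and dotted lines at 2-fold. Enzymes of glycosaminoglycan synthesis reach the highest values, with HS3ST3A1 at 3.86 and PAPSS2 at 3.24, and CEMIP and SPOCK1 the lowest, at -2.00 and -1.92.

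Matrix genes are also made by other cell types, so their markers were read in the same libraries. Summed over 5 genes each, endothelial markers lay at 0.21 to 0.38 TPM in the GFP and 0.17 to 0.29 TPM in the T-MGM libraries, epithelial markers at 0.05 to 0.10 and 0.07 to 0.16 TPM, and leukocyte markers at 0.04 to 0.27 and 0.05 to 0.11 TPM. In DESeq2 0 of these 15 genes passed the test (0 at an unadjusted p under 0.05), and edgeR gave 0 and 0. The 8 fibroblast markers summed to 14.1 to 17.7 TPM in the GFP and 23.3 to 26.4 TPM in the T-MGM libraries. Of these, PRRX1 (0.89), PDGFRA (1.497) and PDGFRB (1.37, adjusted p = 0.0482) rose, FAP, TCF21 and THY1 did not pass and had at most 9 counts in any library, DPT had at most 3 counts, and CD248 had 0 in every library. PRRX1 alone gave most of the sum, at 14.6 TPM in the GFP and 23.4 TPM in the T-MGM libraries on average. The part of this difference in the results above was not tested. Of the 8 melanocytic markers 3 rose and 4 fell. The rises were small, in PMEL (0.05), MITF (0.08) and SOX10 (0.11), and DCT (-2.49), MLANA (-0.68), TYR (-0.35) and S100B (-0.21) fell. The mean TPM of the 3 that rose in the counts was lower in the T-MGM libraries. It went from 252 to 237 for PMEL, 138 to 133 for MITF and 416 to 403 for SOX10. On that scale the median gene was lower too (-0.13).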

How the data were processed

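Per the study's methods, the authors used cutadapt for trimming, STAR for alignment to GRCh38, and featureCounts to count reads with a unique alignment. The counts were deposited raw, as whole numbers. The authors also deposited TPM values made with RSEM, which served for levels and as an alternative. The labels list cutadapt 1.8.1, STAR 2.7.7a and RSEM 1.3.0 and name a kit without strand information, whereas the methods name a strand-specific kit. The annotation release is not given in the sources used here.

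The study used DESeq2 and its threshold was kept. Here counts of all genes were fitted with DESeq2 1.42.0 in R 4.3.3, by a 2-sided Wald test of the group without shrinkage, size factors by median of ratios, and Benjamini-Hochberg adjustment over all genes tested. A local regression replaced the parametric dispersion trend. An adjusted p too small to store is written as 0. Fold changes are T-MGM over GFP. Positions are from GENCODE release 44 on GRCh38 and promoters from RefSeq. Floors cover counting error only. The steps were tested on simulated data.

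The members and lists were chosen with earlier results of these data known. Values in every library are given for called members and for those past the adjusted p of 0.05 that averaged at least 1000 normalized counts, or at least 50 with an absolute log2 fold change over 0.5. Of the further list, called genes with a mean of at least 50 are named, and others were named after their values were seen. Alternatives were edgeR 4.0.16, TMM factors, total counts, at least 10 counts in 3 libraries, no independent filtering, a replicate block, each library left out, limma 3.58.1 on log2 of TPM plus 1 or 0.1 (with a minimum of 0.5 TPM in 3 libraries, or none), and lowess correction for GC content and length.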

Additional observations from a re-analysis of the deposited data

How the results depend on the processing

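With edgeR, TMM factors, the minimum of 10 counts, or no independent filtering, 29 members passed and 6 were called, as in the results above. Total-count scaling gave 27 and 5, GC and length correction 28 and 6. Leaving out 1 library gave 27 to 29 passing and 5 to 8 called; without GFP replicate 3 it was 8 and without GFP replicate 2 it was 5. Limma on TPM gave 17 passing and 2 called with either pseudocount, and 15 and 2 without the minimum. Of the 29 that passed, 10 kept direction and threshold in all 16 alternatives, 16 lost the threshold in at least 1, and MFGE8, SDC4 and AGRN turned in at least 1. The cause was not tested.

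The replicate block gave 27 passing and 6 called members, with SPP1 and SDC4 lost, and 34 further matrix genes against 37. Same-numbered libraries did not deviate together (correlations of -0.00665, -0.0579 and 0.0291 over 12654 genes, with 1 library closest to its own number). These values cannot show whether same-numbered libraries shared a culture or batch, which no label states.

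On the log2 scale, TPM plus 1, plus 0.1 and plus 1 without a minimum turned EMILIN1 to -0.0792, -0.081 and -0.0792, MFAP2 to -0.041, -0.0698 and -0.041, MFGE8 to -0.0048, -0.0049 and -0.0048, SDC4 to -0.0475, -0.0492 and -0.0475, and AGRN to -0.16, -0.17 and -0.16. Without a minimum, THBS1 was -0.16, THBS2 -0.053, FBN2 -0.0090, DCN -0.10 and LOXL4 -0.0046. Total-count scaling turned THBS1 to -0.0296, FBN2 to -0.0431 and EMILIN1 to -0.0187. GC and length correction turned LOXL4 to -0.0306, EMILIN1 to -0.13 (adjusted p = 7.36e-06) and AGRN to -0.0777. Leaving out 1 library moved THBS1 from -0.27 to 0.47, FBN2 from -0.11 to 0.23, FBLN5 from -0.75 to 0.44, DCN from -0.0846 to 0.53, LOXL4 from -0.17 to 0.30 and MFAP2 from -0.00027 to 0.43. Apart from EMILIN1, MFGE8, SDC4 and AGRN, these genes had means of at most 61.3 normalized counts, where few reads limit the precision.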
